A study of Mus musculus with 16 samples.

Results

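A set of 10 genes that mark macrophages was followed in mouse mammary tumors: Adgre1, Csf1r, Cd68, Mrc1, Cd163, Itgam, Fcgr1, Mertk, Trem2 and Apoe. They were taken by name, as the rows of the deposited count table whose Entrez identifier maps to these symbols, and all 10 were found among the 27179 genes of the table. Bulk RNA was sequenced from 15 tumors, 3 in each of 5 groups, and every tumor was collected 7 days after treatment. The tumors were Trp53 null mammary carcinomas of a single transplant line, family F, grown in BALB/cJ females aged 8 to 10 weeks, and mice were assigned at a tumor volume of 65 to 100 mm3. Total counts per tumor were 11002869 to 17184023 (median 13302488), and each member had at least 23 counts in every tumor.

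Mice of the TGFbi+RT+anti-PD-L1 group, called triple here, received the small molecule TGF beta inhibitor IPW-5371 at 20 mg/kg daily, a single focal dose of 10 Gy of radiation (RT) and, each week, 10 mg/kg of an antibody that blocks PD-L1. The TGFbi+RT group received the inhibitor and the radiation. The TGFbi group received the inhibitor and the RT group the radiation. The Sham group received control immunoglobulin. All 5 groups share the Trp53 null genotype, the mouse strain and the tumor family, so they model 1 tumor line in hosts of 1 strain. In bulk RNA, more macrophages and more RNA of a gene per macrophage cannot be told apart.

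Macrophages in tumors come from resident cells and from blood monocytes. Their survival depends on the receptor encoded by Csf1r, and their program is set largely by the transcription factor PU.1, encoded by Spi1. TGF beta restrains several activation programs of these cells, and radiation leaves dying cells that macrophages clear through receptors such as that encoded by Mertk. None of the genes is exclusive to macrophages: Itgam is also found on monocytes, neutrophils and natural killer cells, Mrc1 on some endothelial and dendritic cells, and Apoe in many tissues.

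Promoters are shown for Fcgr1 and Mrc1, which had the largest differences from Sham in TGFbi+RT tumors, for Itgam, which with Mrc1 held the most copies of the PU.1 motif in a single window, and for Cd163, whose profile lay farthest from the other members. RefSeq windows on build GRCm38.p6, from 250 bases before to 50 bases after the transcription start, were found for 8 of the 10 members. Capitals mark the PU.1 box core GAGGAA on either strand (TTCCTC on the lower strand) and, in Fcgr1, the gamma-activated site core TTCNNNGAA, which interferon gamma signaling uses. Fcgr1 lies at chr3:96293920-96294219 on the minus strand, Mrc1 at chr2:14229164-14229463, Itgam at chr7:128062390-128062689 and Cd163 at chr6:124304401-124304700, the last 3 on the plus strand.
Fcgr1: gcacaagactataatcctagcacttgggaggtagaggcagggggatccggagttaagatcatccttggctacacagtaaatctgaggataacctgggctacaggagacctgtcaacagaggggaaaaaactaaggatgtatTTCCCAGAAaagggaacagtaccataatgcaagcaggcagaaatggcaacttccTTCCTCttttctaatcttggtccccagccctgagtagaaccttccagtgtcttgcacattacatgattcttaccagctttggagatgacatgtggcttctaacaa
Mrc1: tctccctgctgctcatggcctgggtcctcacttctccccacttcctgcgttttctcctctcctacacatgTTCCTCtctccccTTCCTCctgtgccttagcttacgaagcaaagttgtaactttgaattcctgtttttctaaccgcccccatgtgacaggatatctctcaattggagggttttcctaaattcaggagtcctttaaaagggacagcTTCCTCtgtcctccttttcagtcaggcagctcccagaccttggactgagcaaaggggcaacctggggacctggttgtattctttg
Itgam: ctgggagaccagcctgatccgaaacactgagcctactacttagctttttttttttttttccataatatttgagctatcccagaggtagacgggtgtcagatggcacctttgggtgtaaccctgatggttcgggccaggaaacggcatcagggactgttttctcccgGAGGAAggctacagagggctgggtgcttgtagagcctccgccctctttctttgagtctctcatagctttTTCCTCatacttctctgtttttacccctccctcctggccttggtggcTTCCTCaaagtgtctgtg
Cd163: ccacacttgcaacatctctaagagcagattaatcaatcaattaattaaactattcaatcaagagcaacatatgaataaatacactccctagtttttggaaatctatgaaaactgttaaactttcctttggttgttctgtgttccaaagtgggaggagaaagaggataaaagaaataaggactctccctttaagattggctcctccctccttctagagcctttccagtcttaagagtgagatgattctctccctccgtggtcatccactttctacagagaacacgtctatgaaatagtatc
GAGGAA was present in 7 of the 10 windows of the 8 matched members (Apoe had 3 windows), against 28.3% of all 32851 mouse promoter windows. Mrc1 and Itgam held 3 copies each, and 4.82% of all windows held 2 or more. TTCNNNGAA was present in the window of 1 member, Fcgr1, where it began 109 bases before the start, against 8.3% of all windows. The 2 patterns can share bases, and in Fcgr1 they did not. No copy of either was in the Cd163 or Mertk window. A match of letters is not evidence of a bound site.

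Levels between genes were compared as FPKM, the library-scaled count (CPM) divided by exon length in kilobases. Apoe, which encodes a lipid carrier, had the highest median over the 15 tumors at 115 FPKM, with a range of 27.7 to 1391. Cd68, a lysosomal membrane protein, followed with 69.0 FPKM. The mannose receptor Mrc1 had a median of 26.4 FPKM, Csf1r 16.8, and Trem2, a lipid-sensing receptor, 13.4. Adgre1, which encodes the F4/80 antigen, had 9.41 FPKM. The integrin subunit Itgam had 5.82 FPKM and the haemoglobin scavenger receptor Cd163 5.78. The lowest medians were those of Mertk, at 3.16 FPKM, and of Fcgr1, the high affinity Fc gamma receptor, at 1.98. On GRCm38 coordinates from the deposited annotation, the members lie on separate loci: Mrc1 and Mertk on chromosome 2, Apoe and Itgam on 7, Adgre1 and Trem2 on 17, Fcgr1 on 3, Cd163 on 6, Cd68 on 11 and Csf1r on 18. No exon of a member overlapped an exon of another annotated gene.

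**Figure D1:**
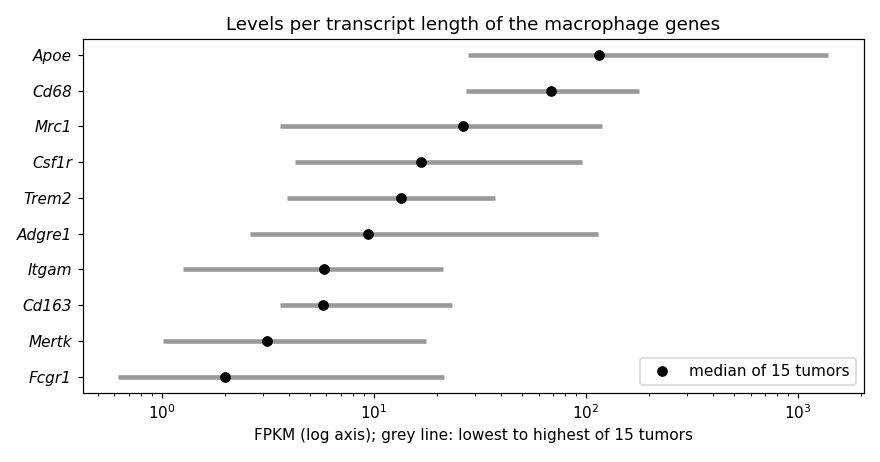
Median (point) and lowest to highest value (line) of each macrophage gene over 15 tumors, as FPKM on a log axis. Apoe and Cd68 had medians of 115 and 69.0 FPKM, and Fcgr1 the lowest at 1.98.

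Library features touch the values that follow. A pair of tumors, triple replicate 2 and TGFbi+RT replicate 3, lay far from the rest on the first principal component of all genes (46.8% of the variance), at -114 and -102, where the remaining 13 tumors spanned -33.1 to 88.5. They are called the 2 tumors that stood apart. TGFbi+RT replicate 3 and TGFbi replicate 3 were resubmitted libraries per their labels. All RT libraries and triple replicates 2 and 3 carry 1 code in the library names, while all TGFbi+RT, TGFbi and Sham libraries and triple replicate 1 carry the other, so that for RT against Sham code and treatment cannot be told apart. Epithelial markers were present in every tumor. Their summed levels were 551 to 847 CPM in triple, 734 to 1053 in TGFbi+RT and 886 to 1700 in TGFbi tumors. They were 725 to 813 CPM in RT tumors and 973 to 1030 CPM in Sham tumors.

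Within genes, levels are given as CPM scaled by TMM. Csf1r, the receptor for the growth factors CSF1 and IL-34, had 66.4, 374 and 127 CPM in triple replicates 1 to 3, 88.7, 62.5 and 252 CPM in TGFbi+RT tumors, 60.9, 46.2 and 99.5 CPM in TGFbi tumors, 170, 53.9 and 29.9 CPM in RT tumors, and 65.0, 16.5 and 25.9 CPM in Sham tumors. All 3 triple tumors lay above all 3 Sham tumors, while the other treated groups overlapped Sham. The log2 fold change against Sham was 2.40 ± 0.82 (SE) in triple tumors and 1.91 ± 0.81 in TGFbi+RT tumors, with edgeR adjusted p of 0.230 and 0.294. These were 1.40 without triple replicate 2 and 1.06 without TGFbi+RT replicate 3, and 3.15 and 2.65 without Sham replicate 1. Of the 10 members, Csf1r lay closest to the mean profile of the members over the 15 tumors, at a root-mean-square difference of 0.219 log2 units.

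Adgre1, the F4/80 gene, had 23.4, 372 and 64.3 CPM in triple tumors, 50.9, 42.1 and 209 CPM in TGFbi+RT tumors, 26.2, 17.4 and 50.6 CPM in TGFbi tumors, 95.1, 23.8 and 15.1 CPM in RT tumors, and 30.5, 8.51 and 13.9 CPM in Sham tumors. The 3 TGFbi+RT tumors lay above all Sham tumors, whereas triple replicate 1 lay below the highest Sham tumor. The fitted log2 fold change against Sham was 3.11 ± 1.06 in triple and 2.50 ± 1.03 in TGFbi+RT tumors (edgeR adjusted p 0.229 and 0.281). These were 1.28 without triple replicate 2 and 1.37 without TGFbi+RT replicate 3, and 3.76 and 3.15 without Sham replicate 1. Highest and lowest tumor differed 43.7-fold over the 15 tumors and 11.2-fold over the 13 without the 2 that stood apart.

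Fcgr1, which binds monomeric IgG and is induced by interferon gamma, had 5.14, 55.9 and 13.2 CPM in triple tumors, 9.60, 8.26 and 39.4 CPM in TGFbi+RT tumors, 2.11, 1.91 and 6.63 CPM in TGFbi tumors, 11.0, 3.33 and 1.62 CPM in RT tumors, and 2.98, 1.96 and 2.07 CPM in Sham tumors. Every triple and every TGFbi+RT tumor lay above every Sham tumor, and the TGFbi+RT tumors also lay above every TGFbi tumor. Fcgr1 had the largest fitted difference of the members from Sham, 3.39 ± 0.99 log2 in triple tumors and 3.02 ± 0.98 in TGFbi+RT tumors (edgeR adjusted p 0.196 and 0.212). DESeq2 called both, with adjusted p of 0.00698 and 0.0256. Without the 2 tumors that stood apart, the log2 fold changes were 1.93 and 1.91 and DESeq2 called neither.

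Mrc1, an endocytic receptor of tissue macrophages, had 111, 394 and 453 CPM in triple tumors, 169, 176 and 633 CPM in TGFbi+RT tumors, 137, 140 and 220 CPM in TGFbi tumors, 258, 44.9 and 19.3 CPM in RT tumors, and 78.4, 23.7 and 35.1 CPM in Sham tumors. All 9 tumors that received the inhibitor lay above all 3 Sham tumors, and RT tumors overlapped Sham. The log2 fold change against Sham was 2.80 ± 0.90 in triple, 2.83 ± 0.91 in TGFbi+RT, 1.86 ± 0.87 in TGFbi and 1.23 ± 0.86 in RT tumors, and the smallest edgeR adjusted p was 0.211, for TGFbi+RT. DESeq2 called Mrc1 in triple and TGFbi+RT tumors (adjusted p 0.0194 and 0.0224). Without the 2 tumors that stood apart the log2 fold changes were 2.60 and 1.90, and DESeq2 called neither.

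Cd163, the second scavenger receptor, followed the others least, with a root-mean-square difference of 0.919 log2 units from the mean profile. It had 33.3, 25.9 and 105 CPM in triple tumors, 21.6, 19.8 and 56.2 CPM in TGFbi+RT tumors, 42.0, 37.7 and 38.9 CPM in TGFbi tumors, 38.4, 16.3 and 22.9 CPM in RT tumors, and 24.8, 16.6 and 25.5 CPM in Sham tumors. Triple and TGFbi tumors lay above all Sham tumors, and TGFbi+RT and RT tumors overlapped them. Triple replicate 2, the highest tumor for 7 other members, was the lowest triple tumor for Cd163. The log2 fold change against Sham was 1.29 ± 0.53 in triple tumors and 0.54 ± 0.52 in TGFbi+RT tumors (edgeR adjusted p 0.288 and 0.635), and the second value was -0.12 without the 2 tumors that stood apart.

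Itgam, the CD11b subunit of the complement receptor 3 integrin, had 21.3, 93.6 and 77.8 CPM in triple tumors, 26.3, 36.9 and 100.0 CPM in TGFbi+RT tumors, 27.3, 17.3 and 29.1 CPM in TGFbi tumors, 64.9, 13.1 and 7.66 CPM in RT tumors, and 37.9, 5.89 and 9.92 CPM in Sham tumors. Sham replicate 1 lay within or above each treated group, so no treated group was clear of Sham. Cd68 had 61.8, 180 and 152 CPM in triple tumors, 69.6, 85.1 and 157 CPM in TGFbi+RT tumors, 47.8, 52.6 and 97.1 CPM in TGFbi tumors, 157, 44.9 and 27.5 CPM in RT tumors, and 91.0, 31.7 and 45.5 CPM in Sham tumors. Each treated group overlapped Sham, and the 6.54-fold span over 15 tumors was among the narrowest of the members.

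Mertk, Trem2 and Apoe act in the clearance of dying cells and in lipid handling. The receptor kinase gene Mertk, whose product recognises dying cells through bridging proteins, had 7.00, 63.1 and 16.3 CPM in triple tumors, 11.6, 12.5 and 43.5 CPM in TGFbi+RT tumors, 4.31, 4.78 and 12.0 CPM in TGFbi tumors, 18.3, 8.08 and 6.96 CPM in RT tumors, and 11.2, 8.11 and 3.63 CPM in Sham tumors. The TGFbi+RT tumors lay above all Sham tumors, and the other treated groups overlapped them. Trem2 had 11.3, 40.8 and 25.3 CPM in triple tumors, 15.1, 14.6 and 26.4 CPM in TGFbi+RT tumors, 9.50, 7.58 and 18.3 CPM in TGFbi tumors, 33.9, 13.0 and 5.69 CPM in RT tumors, and 18.6, 4.26 and 8.49 CPM in Sham tumors. Its groups overlapped in every comparison of 2 groups. Apoe had 138, 1740 and 144 CPM in triple tumors, 254, 99.0 and 375 CPM in TGFbi+RT tumors, 123, 63.2 and 161 CPM in TGFbi tumors, 383, 181 and 76.9 CPM in RT tumors, and 308, 34.7 and 108 CPM in Sham tumors. Triple replicate 2 alone lay above 383 CPM for Apoe, and without it the log2 fold change of triple against Sham was -0.11, against 2.16 ± 1.03 with it.

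**Figure D2:**
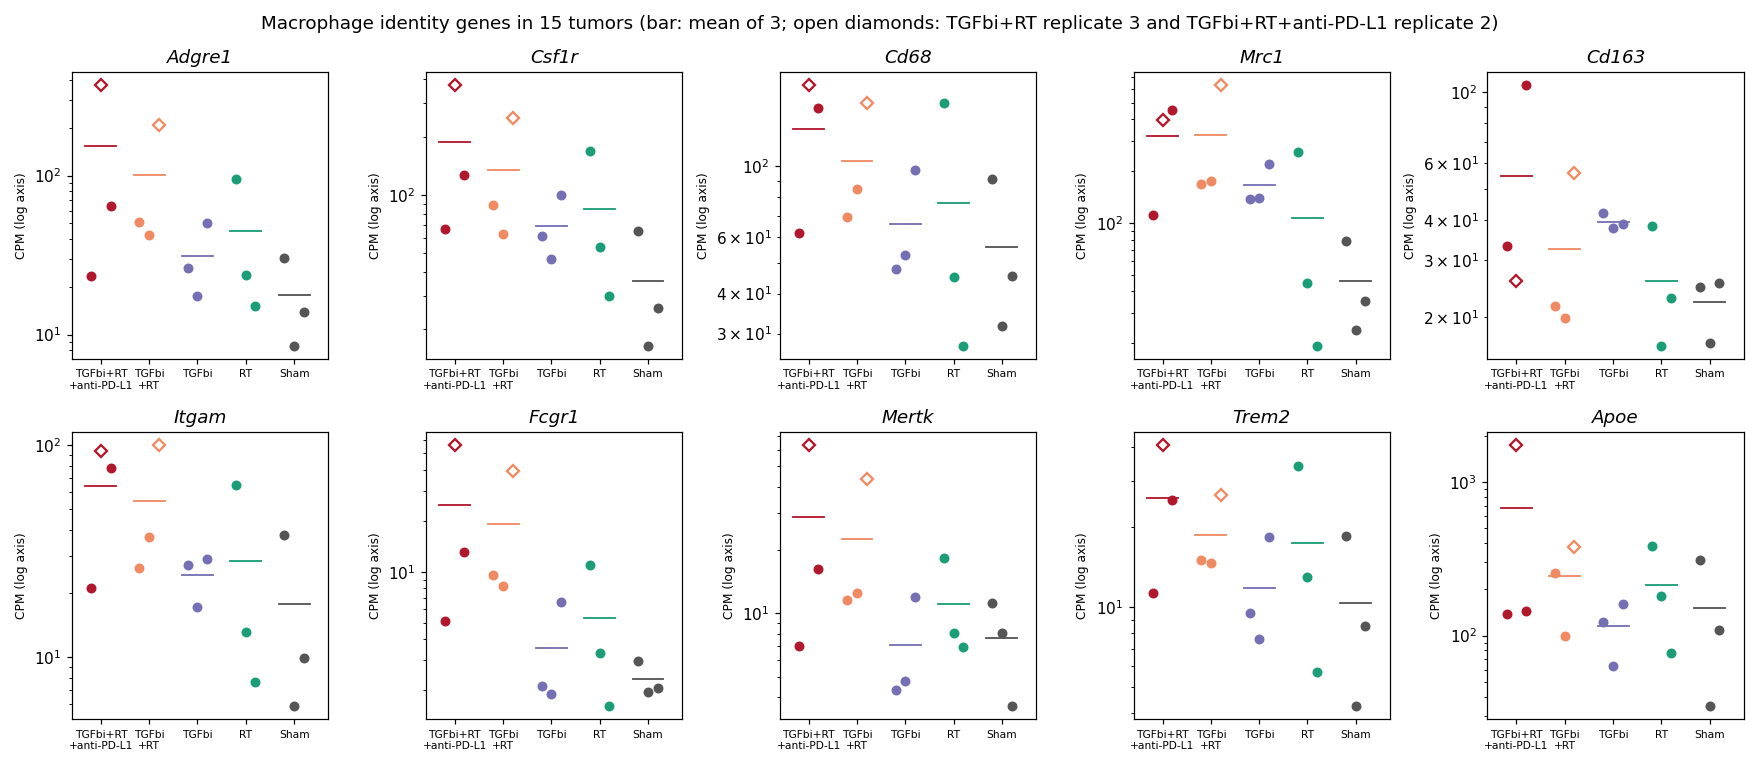
CPM of the 10 genes on log axes, 1 point per tumor and a bar for the mean of 3 tumors, with groups in the order triple, TGFbi+RT, TGFbi, RT and Sham. Open diamonds mark the 2 tumors that stood apart, both above all other 13 tumors for 6 genes. The share of all genes with this pattern was not counted.

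Both tumors that stood apart lay above all other 13 tumors for 6 members: Adgre1, Csf1r, Cd68, Itgam, Fcgr1 and Mertk, although for Cd68 both TGFbi+RT replicate 3 and RT replicate 1 had 157 CPM after rounding. The tumors that stood apart were singled out by the first principal component of all genes. The share of all genes highest in both was not counted, so this is not a result particular to the members. Triple replicate 2 was the highest tumor for 7 members, TGFbi+RT replicate 3 for Mrc1 and Itgam, and triple replicate 3 for Cd163. Sham replicate 2 was the lowest tumor for 5 members and RT replicate 3 for 3. RT replicate 1 was the highest RT tumor for all 10 members, and Sham replicate 1 the highest Sham tumor for 9.

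Markers of other cells were high in some of the same tumors. The 10 T and NK cell markers summed to 40.7, 148 and 3.29 CPM in triple tumors, 13.7, 5.51 and 126 CPM in TGFbi+RT tumors, 1.52 to 6.30 CPM in TGFbi tumors, 2.74 to 9.67 CPM in RT tumors and 0.819 to 3.58 CPM in Sham tumors, where Cd3d, Cd3g, Cd8b1, Ncr1 and Gzmb were at 0. The 8 fibroblast markers summed to 1392, 8009 and 6908 CPM in triple tumors, 2254, 1400 and 3956 CPM in TGFbi+RT tumors and 1773 to 3436 CPM in TGFbi tumors. They summed to 7916, 1017 and 731 CPM in RT tumors and 7928, 416 and 563 CPM in Sham tumors, so that replicate 1 of RT and of Sham was the highest of its group here as well. No fibroblast marker was at 0 in a whole group. The 12 neutrophil markers summed to 16.3 to 148 CPM in triple, 13.7 to 111 in TGFbi+RT, 6.38 to 40.9 in TGFbi and 38.8 to 117 in RT tumors, and to 4.26 to 77.2 CPM in Sham tumors. Ly6g, which defines mouse neutrophils, was at 0 in all triple, TGFbi+RT, TGFbi and RT tumors. S100a9, Cxcr2 and Mmp8 were at most at 1.64, 2.66 and 1.65 CPM in any tumor, so other genes of the list carried most of these sums. The 10 monocyte markers summed to 1549 to 3314 CPM in triple, 1541 to 2809 in TGFbi+RT, 2139 to 2607 in TGFbi and 2411 to 2922 in RT tumors, and to 2463 to 3577 CPM in Sham tumors. Gene by gene they differed from that sum: of 9 tested, 6 were above 0 in triple and 6 in TGFbi+RT against Sham tumors, with median log2 fold changes of 3.07 and 2.97. The edgeR test called 0 of them in either comparison (0% of all genes in each). At an unadjusted edgeR p under 0.05 were 7 and 6, against 14.9% and 15% of all genes. Ly6c2, the Ly6C antigen of classical monocytes, had 2.40, 28.7 and 1.10 CPM in triple tumors, 2.38, 4.72 and 16.5 CPM in TGFbi+RT tumors, at most 0.970 CPM in TGFbi and 1.12 CPM in RT tumors, and 0.239, 0 and 0.0648 CPM in Sham tumors. Ms4a4c, a membrane gene on the same list, had 41.3 and 36.2 CPM in the triple and the TGFbi+RT tumor that stood apart, against at most 0.597 CPM in Sham tumors. Both genes were highest in these 2 tumors. The part of these cells in the member levels was not tested.

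Against Sham, all 10 members had a log2 fold change above 0 in triple tumors, with a median of 2.04 and a range of 1.23 to 3.39. This compares with 49.5% of the 16017 genes tested above 0. The members Csf1r, Mrc1, Cd163 and Fcgr1, 4 of 10, had no overlap between triple and Sham tumors, against 9.41% of all genes tested that were higher without overlap. In all, 6 members had an unadjusted p under 0.05 in edgeR, against 14.9% of all genes, and edgeR called 0 members at an adjusted p under 0.05 (0% of all genes). DESeq2 called 3 members, Csf1r, Mrc1 and Fcgr1, with 3.88% of all genes called, and limma-voom called 0. Without triple replicate 2 the member median was 1.34 and DESeq2 called 0 members, and it also called 0 without Sham replicate 2 or 3. Without Sham replicate 1 the median was 3.08 and DESeq2 called 7. Without both tumors that stood apart, DESeq2 called 1 member, Cd163. For DESeq2 with tumors left out, here and below, the share of all genes called is not given. Those counts are therefore not set against all genes and are no result about the members. With the library code as a term, which the 3 triple tumors alone inform, the median was 0.32.

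In TGFbi+RT tumors all 10 members also had a log2 fold change above 0 against Sham (49% of all genes), with a median of 1.58 and a range of 0.54 to 3.02. Adgre1, Mrc1, Fcgr1 and Mertk, 4 of 10, were higher without overlap, against 10.7% of all genes. In all, 4 members had an unadjusted edgeR p under 0.05, against 15% of all genes, and edgeR called 0 members (0% of all genes). DESeq2 called Mrc1 and Fcgr1, with 3.18% of all genes called, and limma-voom called 0. The median was 0.72 without TGFbi+RT replicate 3, when DESeq2 called 0 members, and DESeq2 likewise called 0 without Sham replicate 2 or 3. It called 4 without Sham replicate 1 and 1 without triple replicate 1 or 3. All libraries of this comparison share 1 code.

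The inhibitor alone had a member median of 0.52 against Sham, with 8 of 10 members above 0 (48.6% of all genes) and Mrc1 highest at 1.86. Mertk and Apoe had values of -0.12 ± 0.79 and -0.38 ± 0.99. Mrc1 and Cd163 were higher in TGFbi tumors without overlap, against 7.43% of all genes. No member had an unadjusted edgeR p under 0.05, against 8.48% of all genes, and none was called by edgeR (0.00624% of all genes), DESeq2 (0.863%) or limma-voom (0%). The median was 0.08 without TGFbi replicate 3, 0.89 without Sham replicate 1 and 0.26 without Sham replicate 2. TGFbi and Sham libraries share 1 code.

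Radiation alone had a member median of 0.71 against Sham, with 10 of 10 members above 0 (52.1% of all genes), a range of 0.21 to 1.33 and 0 members without overlap (5.77% of all genes). No member had an unadjusted edgeR p under 0.05 (4.2% of all genes) and none was called by edgeR (0%), DESeq2 (0.00627%) or limma-voom (0%). Without RT replicate 1 the median was -0.18, and without Sham replicate 1 it was 1.52. With the library code as a term it was -1.16.

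**Figure D3:**
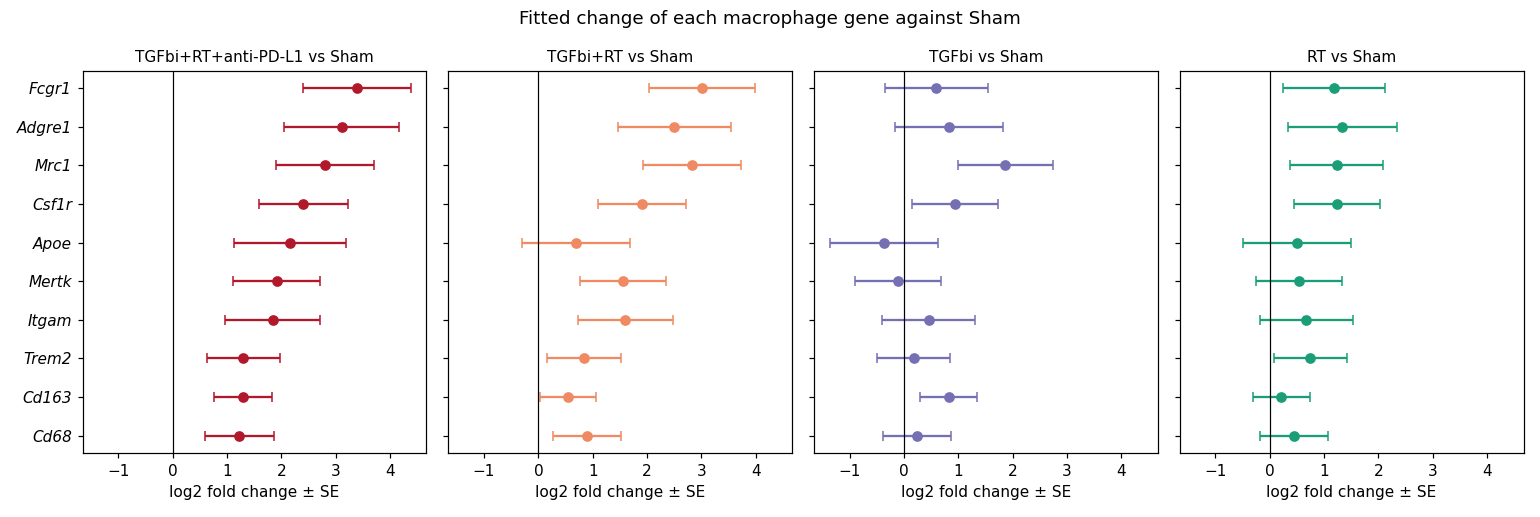
Log2 fold change (point) and SE (line) of each gene against Sham in the edgeR fit, in triple, TGFbi+RT, TGFbi and RT tumors from left to right. All 10 points lie above 0 in triple, TGFbi+RT and RT tumors, and 8 of 10 in TGFbi tumors, and no adjusted p is below 0.196.

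These 4 comparisons share the Sham tumors, so their agreement in direction is not independent. The combination was also set against each single agent. Against RT tumors, TGFbi+RT tumors had a member median of 0.80, with 10 of 10 above 0 (50.2% of all genes), 0 members without overlap (7.66%) and 0 at an unadjusted edgeR p under 0.05 (9.62%). This median was 0.05 without TGFbi+RT replicate 3 and 1.60 without RT replicate 1, and in the second case DESeq2 called 2 members, Mrc1 and Fcgr1. The 2 groups carry different library codes, and with the code as a term the median was 2.94. Against TGFbi tumors, TGFbi+RT tumors had a median of 1.02, with 9 of 10 above 0 (53.7%), the exception being Cd163 at -0.28 ± 0.52. Fcgr1, at 2.42 ± 0.95, was the only member without overlap (6.38%) and the only one with an unadjusted edgeR p under 0.05 (6.06%), and its adjusted p was 0.789. The median was 0.32 without TGFbi+RT replicate 3. None of the members was called in either comparison by edgeR (0% each), DESeq2 (0.395% and 0.0188%) or limma-voom (0% each).

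Adding anti-PD-L1 to TGFbi+RT gave a member median of 0.42, with 9 of 10 above 0 (54.7% of all genes), 0 members without overlap (2.1%) and 0 with an unadjusted edgeR p under 0.05 (1.99%). Apoe had the largest value, 1.48 ± 1.01, and Mrc1 had -0.03 ± 0.84. The median was -0.34 without triple replicate 2, 1.29 without TGFbi+RT replicate 3, and -1.18 with the library code as a term. None of the members was called by edgeR (0%), DESeq2 (0.00627%) or limma-voom (0%).

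Whether inhibitor and radiation together differed from the sum of their separate log2 effects was tested as an interaction. The member median was 0.28, from -0.49 for Cd163 to 1.24 for Fcgr1, with 0 members at an unadjusted edgeR p under 0.05 (3.8% of all genes) and none called by edgeR (0%), DESeq2 (0.0188%) or limma-voom (0%). An approximate 95% interval of the Fcgr1 term, the SE times a normal quantile, was -1.32 to 3.81. It is narrower than the F test would give. For any difference among the 5 groups, Fcgr1 and Mrc1 had an unadjusted edgeR p under 0.05 (10.8% of all genes). Their adjusted p were 0.328 and 0.446, so edgeR called 0 members (0% of all genes), DESeq2 called Fcgr1 (4.11%) and limma-voom 0 (0%).

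Ordered by group means, the triple group was highest for 9 members and TGFbi+RT for Mrc1. Sham was lowest for 8 members and TGFbi for Mertk and Apoe. Neighbours in these orders differed by more than the larger of their SDs in 1 of 40 cases, Csf1r in TGFbi tumors (68.9 ± 27.5 CPM, SD, n = 3) over Sham tumors (35.8 ± 25.7 CPM, SD, n = 3).

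The makeup of the macrophage genes was described by the ratio of each member's FPKM to that of Csf1r in the same tumor. These ratios were chosen after their values were seen, share the denominator and carry no test. Mrc1 to Csf1r was 1.22, 0.768 and 2.60 in triple tumors, 1.38, 2.05 and 1.83 in TGFbi+RT tumors, 1.64, 2.21 and 1.61 in TGFbi tumors, 1.10, 0.608 and 0.471 in RT tumors, and 0.878, 1.05 and 0.987 in Sham tumors. Thus 8 of the 9 tumors given the inhibitor lay above all 6 tumors without it, the exception being triple replicate 2. The same pattern in at least 8 of 9 tumors was found for 0.35% of the 16016 other genes tested.

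Trem2 to Csf1r was 0.608, 0.389 and 0.711 in triple tumors, 0.606, 0.834 and 0.374 in TGFbi+RT tumors, 0.555, 0.583 and 0.657 in TGFbi tumors, 0.710, 0.861 and 0.679 in RT tumors, and 1.02, 0.921 and 1.17 in Sham tumors. All 12 treated tumors lay below all 3 Sham tumors. Cd68 to Csf1r did so as well, at 1.85 to 5.24 in the 12 treated tumors and 5.38, 7.40 and 6.74 in Sham tumors. This complete separation was found for 2.75% of the other genes tested. It is a statement on the ratio, since neither Trem2 nor Cd68 was lower than Sham as CPM in any group mean.

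Cd163 to Csf1r was 0.432, 0.0599 and 0.715 in triple tumors and 0.211, 0.274 and 0.192 in TGFbi+RT tumors. It was 0.595, 0.704 and 0.337 in TGFbi tumors, 0.194, 0.261 and 0.662 in RT tumors and 0.329, 0.871 and 0.850 in Sham tumors. Triple replicate 2 thus had the lowest Cd163 ratio of the 15 tumors. Apoe to Csf1r was 6.46, 14.4 and 3.52 in triple tumors, 8.88, 4.91 and 4.60 in TGFbi+RT tumors and 6.26, 4.24 and 5.02 in TGFbi tumors. It was 6.97, 10.4 and 7.97 in RT tumors and 14.7, 6.53 and 12.9 in Sham tumors. For Apoe and for Trem2, 7 of the 9 tumors given the inhibitor lay below all 6 without it, a pattern found for 0.862% of the other genes tested.

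**Figure D4:**
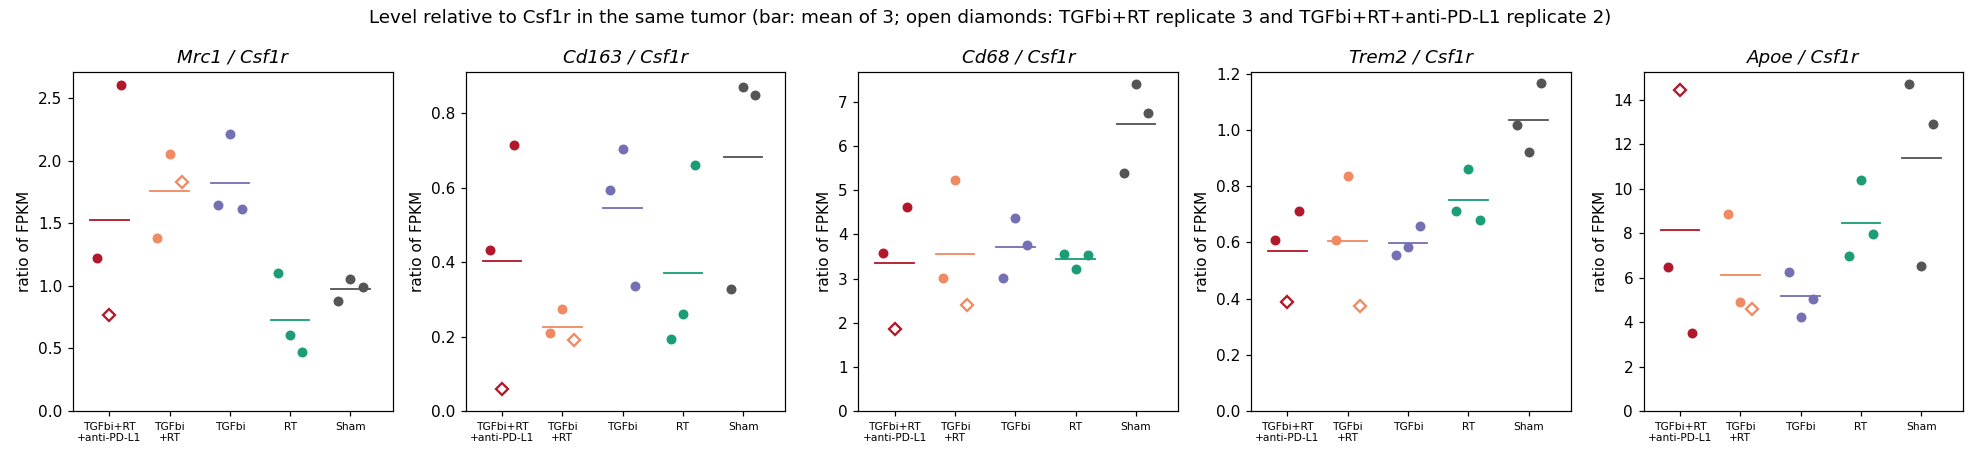
Ratio of FPKM of Mrc1, Cd163, Cd68, Trem2 and Apoe to Csf1r in the same tumor, 1 point per tumor and a bar for the mean of 3, with open diamonds for the 2 tumors that stood apart. The Trem2 and Cd68 ratios of all 12 treated tumors lie below those of the 3 Sham tumors, and the Mrc1 ratio of 8 of 9 tumors given the inhibitor lies above those of the 6 without it.

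Among the members, Cd68 and Trem2 had the closest profiles over the 15 tumors, with a root-mean-square difference of 0.259 log2 units, and Cd163 and Fcgr1 the farthest of the 45 pairs, at 1.41. The genes outside the list closest to the mean profile, of 12902 compared, were Inpp5d (0.180), a phosphatase of blood cells, Pla2g15 (0.182), a lysosomal phospholipase, and Fes (0.192), a myeloid tyrosine kinase. Prune2, Lcp1, Pid1, Hexa and Man1c1 came next, at 0.198 to 0.214. Csf1r lay closest to Cmklr1 (0.168), a chemoattractant receptor, and Apoe to Abca1 (0.383), a lipid exporter that loads apolipoprotein E. The lysosomal protease Ctsb was closest both to Cd68 (0.157) and to Trem2 (0.224). Adgre1 lay closest to Myo1f (0.232), Itgam to Cd300lb (0.222), Fcgr1 to Ly9 (0.290), Mertk to Rassf4 (0.366) and Cd163 to Nova1 (0.368). All points of such a profile share the library totals of the tumors.

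The pathways around the members were counted in lists, and edgeR called 0 of their tested genes in any of the 7 comparisons of 2 groups, with the percentages of all genes given above. Of 10 macrophage transcription factors, 10 had a log2 fold change above 0 in triple against Sham tumors (median 1.89) and 10 in TGFbi+RT against Sham tumors (median 1.48). Spi1, which encodes PU.1, had 12.1, 78.3 and 29.6 CPM in triple tumors, 15.1, 20.3 and 63.2 CPM in TGFbi+RT tumors, 7.66 to 16.3 CPM in TGFbi tumors, 4.08 to 28.8 CPM in RT tumors, and 12.3, 3.60 and 4.80 CPM in Sham tumors. The highest Spi1 levels were thus in the 2 tumors that stood apart, and triple replicate 1 lay below Sham replicate 1.

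Of 4 genes for other Fc gamma receptors and their signaling chain, 4 were above 0 in triple and in TGFbi+RT against Sham tumors, with medians of 2.45 and 2.31. Fcgr4, an activating receptor for IgG2, had 3.40, 106 and 8.53 CPM in triple tumors, 12.7, 7.55 and 84.7 CPM in TGFbi+RT tumors, 1.59 to 6.63 CPM in TGFbi tumors, 0.984 to 7.36 CPM in RT tumors, and 2.51, 0 and 1.43 CPM in Sham tumors. The triple and the TGFbi+RT tumors lay wholly above Sham, a separation that the choice of the gene by its p for any difference favoured. A list named for the CSF1 axis also held Csf2ra and Csf3r, receptor genes for other colony-stimulating factors. Of its 5 tested genes, 5 were above 0 in both comparisons. The medians, 1.55 and 1.43, were the values of Csf2ra, and Csf1 itself had 1.15 and 1.23. The ligand Csf1 had 57.2, 139 and 93.4 CPM in triple tumors, 61.7, 54.8 and 190 CPM in TGFbi+RT tumors, 39.9 to 54.8 CPM in TGFbi tumors, 31.9 to 90.0 CPM in RT tumors, and 54.1, 38.1 and 38.3 CPM in Sham tumors.

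Of 12 tested scavenger and resident macrophage genes, 11 were above 0 in triple against Sham tumors (median 2.25) and 10 in TGFbi+RT against Sham tumors (median 1.58). Siglec1, the sialoadhesin of resident macrophages, had 76.7, 432 and 221 CPM in triple tumors, 130, 83.6 and 445 CPM in TGFbi+RT tumors, 42.6, 50.7 and 76.3 CPM in TGFbi tumors, 120, 24.9 and 19.9 CPM in RT tumors, and 28.2, 13.0 and 15.4 CPM in Sham tumors. Clec10a, a galactose lectin of macrophages and dendritic cells, had 8.14, 41.5 and 58.2 CPM in triple tumors, 17.0, 8.65 and 81.5 CPM in TGFbi+RT tumors, 12.0, 11.2 and 10.9 CPM in TGFbi tumors, 10.7, 0.950 and 0.141 CPM in RT tumors, and 1.43, 1.06 and 0.843 CPM in Sham tumors. For both genes all 9 tumors given the inhibitor lay above all Sham tumors. Both were named for a small p for any difference in these same tumors, a choice that favoured such a separation. The share of all genes with this pattern was not counted.

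Of 8 tested genes of alternative activation, 8 were above 0 in triple and in TGFbi+RT against Sham tumors (medians 3.13 and 3.77), 7 in TGFbi (median 1.43) and 4 in RT against Sham tumors (median 0.21). Retnla, a secreted protein induced by interleukin 4, had 1.60, 10.2 and 17.1 CPM in triple tumors, 2.68, 1.02 and 140 CPM in TGFbi+RT tumors, 10.1, 5.74 and 1.21 CPM in TGFbi tumors, at most 0.312 CPM in RT tumors, and 0.418, 0.0819 and 0 CPM in Sham tumors. All 9 tumors given the inhibitor lay above all 6 without it, a separation that the choice of the gene favoured, at levels near 0 without the inhibitor. Of 11 tested genes of inflammatory activation, 9 were above 0 in triple and 10 in TGFbi+RT against Sham tumors, with medians of 2.30 and 2.12.

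Of 11 tested genes of efferocytosis, the clearance of dying cells, 8 were above 0 in triple and 6 in TGFbi+RT against Sham tumors (medians 1.15 and 0.71). Timd4, a receptor for phosphatidylserine on resident macrophages, had 7.14, 9.87 and 6.16 CPM in triple tumors, 0.893, 1.57 and 3.92 CPM in TGFbi+RT tumors, 0.440, 0.957 and 0.970 CPM in TGFbi tumors, 0.437, 0 and 0.211 CPM in RT tumors, and 0.477, 0.327 and 0.259 CPM in Sham tumors. The 3 triple tumors were the 3 highest of the 15, and its adjusted p for any difference among groups was 0.147 in edgeR. Tyro3, which encodes a receptor kinase related to Mertk, had 26.6, 22.8 and 16.8 CPM in triple tumors, 24.8, 21.3 and 20.3 CPM in TGFbi+RT tumors, 18.3, 12.3 and 18.5 CPM in TGFbi tumors, 24.0, 30.7 and 34.1 CPM in RT tumors, and 36.0, 24.4 and 33.0 CPM in Sham tumors. Its TGFbi tumors lay below all Sham tumors. Timd4 and Tyro3 were named for a small p for any difference, a choice that favoured separate groups. The shares of all genes with these patterns were not counted.

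Of 18 genes of TREM2 signaling and lipid-associated macrophages, 15 were above 0 in triple and 14 in TGFbi+RT against Sham tumors, with medians of 0.62 and 0.59. Lpl, a lipase that frees fatty acids, had 64.4, 322 and 72.8 CPM in triple tumors, 63.8, 38.6 and 344 CPM in TGFbi+RT tumors, 106, 19.4 and 34.4 CPM in TGFbi tumors, 68.3, 10.4 and 5.62 CPM in RT tumors, and 27.0, 5.65 and 4.67 CPM in Sham tumors. Adipocytes also make Lpl, and the 6 adipocyte markers summed to 83.1 to 164 CPM in triple, 32.9 to 254 in TGFbi+RT, 27.7 to 254 in TGFbi and 5.34 to 86.1 in RT tumors, and to 5.98 to 69.9 CPM in Sham tumors, where Adipoq was at 0. Their part in the Lpl level was not tested. The 10 lysosome genes had medians of 0.55 in triple and 0.25 in TGFbi+RT against Sham tumors, with 9 above 0 in each. Of 5 tested integrin partners of Itgam, 5 were above 0 in both, with medians of 2.47 and 2.25.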

How the data were processed

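RNA of 15 mouse mammary tumors, 3 in each of 5 groups, was sequenced as 1 library per tumor. Per the labels, RNA extracted with an RNeasy kit was depleted of ribosomal RNA and made into libraries by NEBNext Ultra II chemistry. The deposited table holds the authors' raw count of fragments per Entrez gene and library, with no normalization, on GRCm38 per the submitters' processing notes, and its column names mention Subread. A deposited annotation file gives other values, the exon coordinates and exon length of each gene. The strand setting and annotation release are not given in the sources used here. Of 27179 Entrez identifiers, 25275 had a symbol in the gene table used.

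Counts were analysed in R 4.3.3 with edgeR 4.0.16. The filterByExpr filter left 16017 genes, among them all 10 members. Libraries were scaled by TMM (factors 0.919 to 1.05), and a quasi-likelihood model with 1 mean per group was fitted to the 15 tumors (10 residual degrees of freedom). The fits gave 7 comparisons of 2 groups, the interaction of inhibitor and radiation, and an F test of any difference, each with Benjamini-Hochberg adjustment over all genes tested and a threshold of 0.05. Log2 fold changes carry standard errors, taken as the size of the change divided by the square root of its F statistic. Replicates are tumors of separate mice, and within-group pairs differed beyond counting error (chi-square per gene 14.0 to 129, Spearman 0.918 to 0.986), so none looked like 1 library counted again. Profiles were compared as the root-mean-square difference of log2 CPM (prior count 2) centred per gene, over genes with a symbol and an average log2 CPM of at least 1.

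All 10 members are named. Of 20 other lists (187 entries, 163 tested), up to 3 genes with the smallest unadjusted p for any difference could be named, and a part of these is given. The 8 genes closest to the member mean and the gene closest to each member are named as well, except 1 that is not reported here. The members and lists were chosen with earlier results of these data known, and the ratios to Csf1r after their values were seen, so no p is adjusted over a list. Groups are given no p outside the fit. Promoters came from RefSeq on GRCm38.p6. Alternatives were DESeq2 1.42.0, limma-voom (limma 3.58.1), DESeq2 size factors, no low-count filter, a fit of the compared groups alone, a replicate block, the library code as a term, and tumors left out. DESeq2 with tumors left out was added after seeing the data. The fitting code was tested on simulated data.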

Additional observations from a re-analysis of the deposited data

Results flagged for a closer look

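A single internal reference library, labelled as Trp53 null mammary carcinoma with no treatment group and with a total of 9003730 counts, was not part of any comparison. Scaled together with the 15 tumors, its level of each of the 10 members lay above that of every Sham tumor. Among the receptors it had 289 CPM of Csf1r, where the highest Sham tumor had 66.3 CPM, and 100.3 CPM of Adgre1, where that tumor had 31.2. It had 13.5 CPM of Fcgr1 against at most 3.04 CPM in Sham tumors, and 150.2 CPM of Itgam against at most 38.6. For the scavenger receptors it had 618 CPM of Mrc1 and 50.5 CPM of Cd163, against at most 80.0 and 25.9 CPM in Sham tumors. Cd68 was at 144 CPM against at most 92.8 in Sham tumors. Mertk, Trem2 and Apoe were at 35.5, 36.2 and 419 CPM, against at most 11.4, 18.9 and 315 CPM in Sham tumors. As this is 1 library in no treatment group, no test was made.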

How the results depend on the processing

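The edgeR fits, with any 1 tumor left out as well, and limma-voom called 0 members in every comparison. Over the planned settings that were not single tumors left out, 77 of 80 recomputed counts of called members were 0. The exceptions were the DESeq2 counts on all tumors: 3 in triple against Sham tumors, 2 in TGFbi+RT against Sham tumors and 1 for any difference. In the added DESeq2 fit without the 2 tumors that stood apart these were 1, 0 and 1, the member called being Cd163. Leaving out 1 tumor at a time, DESeq2 called 0 to 7, 0 to 4 and 1 to 4 members in these, the last with 4 without RT replicate 1 and 3 without triple replicate 1. The share of all genes called in these fits with tumors left out is not given. With the library code as a term the median log2 fold change was 0.32 for triple against Sham, -1.16 for RT against Sham, 2.94 for TGFbi+RT against RT and -1.18 for triple against TGFbi+RT, and in triple against Sham tumors Mertk was at -0.13 and Apoe at -0.12. The term rests on 3 triple tumors, and the cause was not tested.

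Without the resubmitted libraries, Cd163 in TGFbi+RT against Sham was at -0.11, and without the 2 tumors that stood apart at -0.12, with a range of -0.12 to 0.79 over single tumors left out. Apoe in triple against Sham was at -0.11 without the 2 tumors, with a range of -0.11 to 3.23. The triple against Sham median ranged from 1.34 to 3.08. The cause was not tested.

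The replicate numbers do not pair the tumors: same-numbered tumors of different groups had deviations correlated at -0.58 to 0.67 (median -0.05, 13 of 30 pairs over 0.1), and 6 of 15 tumors correlated best with their own number. With the number as a replicate block, 0 members were called and the medians were 2.38 for triple, 1.68 for TGFbi+RT, 0.58 for TGFbi and 0.72 for RT against Sham.

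There were 3 tumors a group, the member mean had a spread of 0.98 log2 units (SD) within groups, and each member had at least 23 counts in each tumor.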

Other observations

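Dendritic cell markers were also followed. Flt3, Ccr7 and Cd209a are growth factor receptor, migration receptor and lectin of these cells. They had log2 differences of 4.34, 3.87 and 6.22 in triple against Sham tumors and of 2.93, 2.86 and 4.80 in TGFbi+RT against Sham tumors. These differences rest on Sham levels near 0. Sham tumors had 0.179, 0 and 0.195 CPM of Flt3, 0.298, 0.491 and 0.648 of Ccr7 and 0, 0.0819 and 0 of Cd209a. Triple tumors had 1.33, 3.13 and 2.70 CPM of Cd209a. edgeR called none of the 10 dendritic cell genes tested (0% of all genes in each comparison). The summed level of the 10 genes overlapped across groups, at 194 to 278 CPM in triple, 166 to 261 in TGFbi+RT and 155 to 244 in TGFbi tumors. It was 223 to 266 CPM in RT tumors and 203 to 233 CPM in Sham tumors. Flt3, Ccr7 and Cd209a made up a small part of that sum, which other genes of the list carried.

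The 7 mast cell markers summed to 32.7 to 120 CPM in triple, 11.8 to 93.5 in TGFbi+RT, 10.7 to 54.8 in TGFbi and 67.6 to 83.8 in RT tumors, and to 8.60 to 126 CPM in Sham tumors. In Sham tumors Cma1, Mcpt4, Fcer1a and Ms4a2 were at 0 and Tpsb2 at most at 0.130 CPM, so Cpa3 and Kit carried that sum. Of 5 tested, 5 were above 0 in triple and 4 in TGFbi+RT against Sham tumors. The median log2 fold changes, 4.72 and 4.94, rest on genes near 0 in Sham tumors. The edgeR test called 0 of them in either comparison, with 4 at an unadjusted p under 0.05 in each (14.9% and 15% of all genes).

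B cell genes were near 0 in most tumors. The 6 markers summed to 0.844 to 45.4 CPM in triple and to 0.655 to 2.14 CPM in Sham tumors, and the highest value was that of triple replicate 1, a tumor that was not the highest for any of the 10 macrophage genes.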
